A study of Arabidopsis thaliana with 10 samples.

Results

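Untreated seedlings of 2 experiments, named Set2 and Set1 by the sample titles, were compared to describe the resting state from which each experiment started before jasmonic acid (JA) was given. The members are the 5 untreated libraries of the 10 in the series, 3 of Set2_ctrl and 2 of Set1_ctrl, and the nuclear genes in them. All were whole seedlings of Arabidopsis thaliana Col-0, the wild type, at an age of 10 days, with no mutation, transgene or treatment. The 5 remaining libraries, 3 of Set2_2hJA and 2 of Set1_2hJA, came from seedlings of the same kind exposed for 2 h to gaseous methyl jasmonate, and were used here as a second measurement of the difference between the sets. Set and experiment are the same thing in these samples, so that growth, time of harvest, RNA preparation and sequencing cannot be told apart from each other as sources of a difference. The study describes the libraries as biological replicates, 2 of a pilot experiment and 3 of a larger one, from seedlings grown in long days on medium with sucrose. The hour of harvest is not given in the sources used here.

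Plants recognise fragments of microbes with receptor kinases at the cell surface, which pass the signal through MAP kinases and WRKY transcription factors to genes for antimicrobial compounds, and salicylic acid (SA) sustains this defence. The circadian clock orders gene expression over the day: CCA1 and LHY are expressed around dawn, the PRR genes follow each other through the day, and TOC1 and the evening complex of ELF3, ELF4 and LUX come towards night. Light and the clock together set the genes of the photosynthetic antenna, and growth and defence often change in opposite directions in seedlings.

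The deposited expected counts summed to between 6333822 and 6724837 per library in Set2_ctrl and to 16580843 and 12147941 in Set1_ctrl. Plastid transcripts, which were left out together with mitochondrial and rRNA genes, held 0.132% to 0.377% of the counts in Set2_ctrl, against 13.8% and 1.87% in Set1_ctrl. The share of rRNA was 0.0857% to 0.101% in Set2_ctrl, against 11.6% and 1.32%. Of 32833 genes, 32544 were nuclear and 19205 passed the filter on low counts. Pearson correlations of log2 CPM, where CPM is the count scaled to a common library size with TMM factors, were 0.966 to 0.973 within Set2_ctrl, 0.965 within Set1_ctrl and 0.903 to 0.929 between them. Genes of green tissue were expressed in every library, with Calvin cycle genes summing to between 46068 and 52648 CPM in Set2_ctrl, against 59752 and 63294 CPM in Set1_ctrl. No member of the lists of root markers and of shoot epidermis and meristem markers was called in either direction (16 and 8 tested). The summed root markers ranged from 145 to 183 CPM in Set2_ctrl, against 168 and 209 CPM in Set1_ctrl, and the shoot markers from 52.4 to 62.3 CPM, against 66.3 and 78.4 CPM. Seed storage genes had at most 8 counts in any library. The gene lists held 531 genes found in the files, of which 474 were tested. Many named genes overlap a neighbour or an antisense gene in the annotation, and because the strand setting of the counting is not given in the sources used here, reads of such pairs may not be separated. The partner is given for genes on which a result turns. In whole seedlings, fewer cells of a type and less RNA per cell cannot be told apart.

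Defence genes and the morning clock genes CCA1, LHY and RVE8 were higher in Set2_ctrl. Several evening clock genes, antenna genes, cold-regulated genes and PORB were lower. A gene was called when its adjusted p in edgeR's quasi-likelihood test was at most 0.05 and its change at least 2-fold. By this rule 825 genes were higher in Set2_ctrl (4.3% of those tested) and 681 were lower (3.55%). At 4-fold or more the counts were 350 and 119. The balance of directions depended on scaling: 54.8% of the calls were higher with TMM, and 78.3% were higher when only library totals were used, which moved the median of all genes by 0.24 on the log2 scale. Values of the 2 groups did not overlap for 50.2% of the tested genes, so that separation alone is a weak criterion here. Of the 1506 called genes only 2 had groups that overlapped, so that separation of a called gene adds no support to its call. With 3 against 2 libraries an exact permutation test of a single value cannot go below p 0.1, and calls rest on the variance shared across genes.

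**Figure D1:**
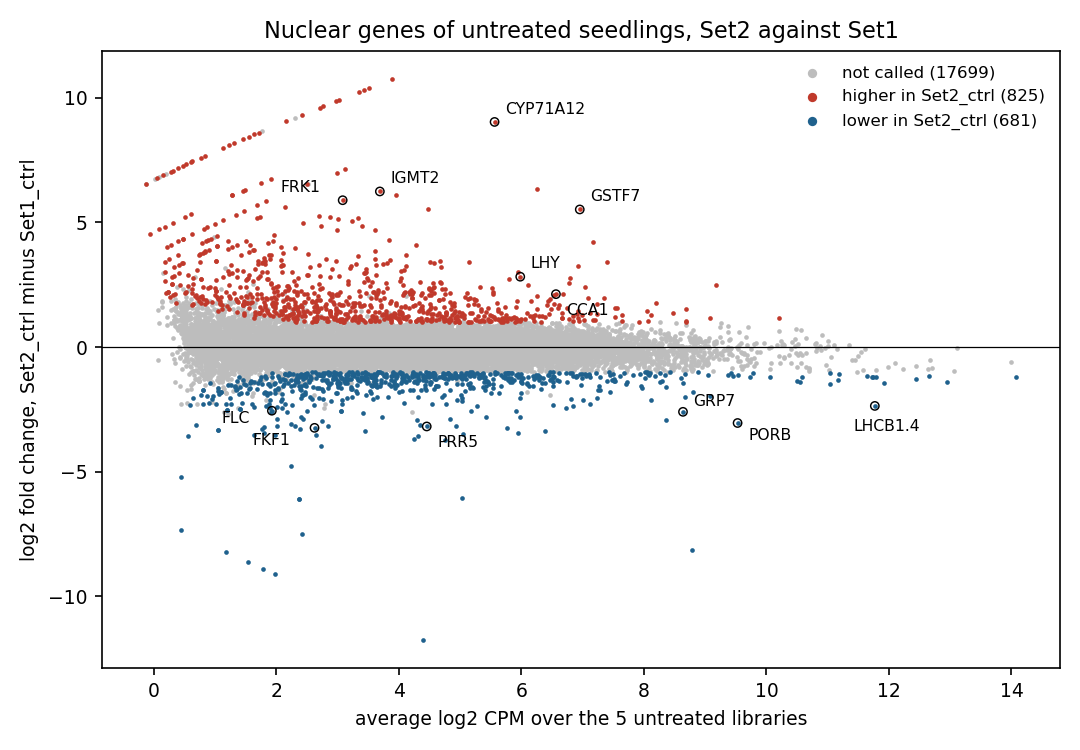
Log2 fold change (Set2_ctrl minus Set1_ctrl) of the 19205 tested nuclear genes against their average log2 CPM, with the 825 genes called higher in red and the 681 called lower in blue. More genes passed 4-fold upwards (350) than downwards (119), and the straight rows of points at the upper left are genes with 0 or few counts in Set1_ctrl, whose fitted values are no bound.

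The genes with the largest fitted increases were mostly silent in Set1_ctrl. Genes with 0 or few counts there get the largest fitted values, so this silence follows from the ranking. SAG13 (AT2G29350), a marker of senescing and infected leaves, had 25.3, 25.7 and 8.01 CPM in Set2_ctrl, against 0 and 0 CPM in Set1_ctrl. AT1G26390 had 21.8, 21.5 and 12.5 CPM in Set2_ctrl, against 0 and 0 CPM in Set1_ctrl. Against the limit of 3 counts in the Set1_ctrl libraries together, these were at least 143-fold and 135-fold higher. These and later bounds use summed counts and leave out the spread among libraries, so that single libraries can lie below them. Neither gene had a single count in Set1_ctrl, and both had counts in every Set2_ctrl library. DIR1, a lipid transfer protein of systemic acquired resistance that overlaps AT5G48480, had 11.4, 22.6 and 18.6 CPM in Set2_ctrl, against 0 and 0 CPM in Set1_ctrl (at least 127-fold higher). DIR1 had no count in any of the 5 treated libraries, and its counts were not whole in 60% of the untreated ones. PCC1, a pathogen and circadian controlled gene, had 33.4, 7.62 and 1.02 CPM in Set2_ctrl, against 0 and 0 CPM in Set1_ctrl. The bound from its summed counts was 102-fold, with 235 of the 296 counts in Set2_ctrl replicate 1. It differed widely among the Set2_ctrl libraries, and its call was lost without Set1_ctrl replicate 1 (adjusted p 0.126) or replicate 2 (adjusted p 0.0909). The long noncoding RNA AT3G22121, which overlaps AT3G22120, had 8.11, 28.8 and 38.9 CPM in Set2_ctrl, against 0 and 0 CPM in Set1_ctrl (at least 182-fold). AT4G12490 had 70.2, 98.9 and 213 CPM in Set2_ctrl, against 0.539 and 2.64 CPM in Set1_ctrl, with a log2 fold change of 6.33 ± 0.68 (SE) that was 5.58 without Set1_ctrl replicate 1 and 7.84 without replicate 2. In all, 29 of the 825 higher genes had no count in Set1_ctrl, and 6 of the 681 lower genes had none in Set2_ctrl.

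Among the largest decreases, 3 genes followed the share of rRNA in the Set1_ctrl libraries. The noncoding RNA AT2G09250 had 0, 0 and 0 CPM in Set2_ctrl, against 90.5 and 9.32 CPM in Set1_ctrl, AT2G01021 had 2.56, 5.65 and 3.35 CPM in Set2_ctrl, against 2016 and 168 CPM in Set1_ctrl, and AT1G15405 had 0.853, 1.13 and 1.46 CPM in Set2_ctrl, against 135 and 19.6 CPM in Set1_ctrl. All 3 were several times higher in Set1_ctrl replicate 1 than in replicate 2, as was the rRNA share (11.6% and 1.32%), and its part in their difference was not tested. Their log2 fold changes were -8.14 for AT2G01021 and -6.06 for AT1G15405, and without Set1_ctrl replicate 1 they were -5.44 and -4.08, against -9.02 and -6.86 without replicate 2. AT2G09250, which overlaps AT2G41310, was at least 356-fold lower against the limit of 3 counts in Set2_ctrl, a bound of 65.2-fold without Set1_ctrl replicate 1. The other 5 genes had similar values in both Set1_ctrl libraries. RbcX1, a chaperone for the assembly of Rubisco, had 4.98, 2.54 and 1.89 CPM in Set2_ctrl, against 44.8 and 36.3 CPM in Set1_ctrl (-3.68 ± 0.30, adjusted p 0.000336). WCRKC1, a thioredoxin, had 5.55, 2.68 and 2.48 CPM in Set2_ctrl, against 49.2 and 34.9 CPM in Set1_ctrl (-3.55 ± 0.30, adjusted p 0.000348). COR413IM1, a cold-regulated protein of the chloroplast envelope, had 7.11, 7.62 and 3.93 CPM in Set2_ctrl, against 76.2 and 65.5 CPM in Set1_ctrl (-3.50 ± 0.23, adjusted p 0.000171). The last 2 were AT1G56300, with a log2 fold change of -3.72 that was -4.65 without Set2_ctrl replicate 1, and AT2G33830, with -3.46.

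Genes of pattern-triggered immunity, the first layer of defence, gave calls in one direction: 12 of the 26 tested members were called higher and none lower, with a median log2 fold change of 1.0 beside 0.00 over all tested genes. All 26 had a positive value, called or not. The strongest was FRK1 (AT2G19190, chromosome 2, 8326049 to 8329944), a receptor-like kinase used as a marker of flagellin signalling, which had 18.3, 11.7 and 13.3 CPM in Set2_ctrl, against 0.270 and 0.188 CPM in Set1_ctrl. The ratio of the groups was 62.8 with a 95% counting interval of 26.6 to 195, an interval that covers counting error only, and FRK1 overlaps AT2G19180. GSTF7 (AT1G02920, chromosome 1, 658578 to 659980), a glutathione transferase induced by pathogens, had 217, 232 and 163 CPM in Set2_ctrl, against 4.85 and 4.05 CPM in Set1_ctrl. Its log2 fold change was 5.52 ± 0.25 (adjusted p 6.78e-05), and its neighbour GSTF6 had 2.77 ± 0.15 (adjusted p 0.000154). Counts of both were not whole, so that reads shared between these similar genes enter them. CYP81F2, which makes the indole glucosinolates used against fungi and bacteria, had 26.4, 22.6 and 22.1 CPM in Set2_ctrl, against 0.899 and 1.51 CPM in Set1_ctrl (4.29 ± 0.26, adjusted p 0.000171). The Set1_ctrl level of each of these genes was a small fraction of its level in any Set2_ctrl library.

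The W-box, to which WRKY factors bind, was written as TTGACC or TTGACT on either strand and searched in the 300 bases before the annotated start of each gene in the RefSeq sequence of TAIR10.1. It was present before 11 of the 12 called members of the list and before 20 of its 26 tested members. The stretches that hold it before FRK1 (chr2:8329945-8330044, minus strand), GSTF7 (chr1:659981-660140, minus strand) and WRKY33 (chr2:16108115-16108234, plus strand) are shown as examples of called defence genes. They are written 5′ to 3′ on the strand of the gene and end at the base before its start, with the W-box in capitals in either orientation.
FRK1: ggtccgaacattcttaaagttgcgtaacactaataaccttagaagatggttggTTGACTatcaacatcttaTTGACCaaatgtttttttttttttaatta
GSTF7: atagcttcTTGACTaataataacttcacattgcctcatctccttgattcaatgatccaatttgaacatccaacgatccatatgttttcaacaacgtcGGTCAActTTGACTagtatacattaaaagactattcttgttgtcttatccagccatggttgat
WRKY33: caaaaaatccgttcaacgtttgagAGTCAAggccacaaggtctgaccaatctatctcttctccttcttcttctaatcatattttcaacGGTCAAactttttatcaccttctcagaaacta
Over all tested genes with a promoter in the table, the W-box was found before 51.4% of 825 genes called higher, 25.6% of 680 called lower and 31.8% of 19204 tested. The match is a description of these letters, not a binding site.

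Among the components that perceive and pass on microbial patterns, some were called and others were not. The receptor EFR had 10.1, 9.60 and 8.30 CPM in Set2_ctrl, against 2.61 and 2.45 CPM in Set1_ctrl (1.88 ± 0.25, adjusted p 0.0019), and SOBIR1, a co-receptor of receptor-like proteins, had 51.1, 33.0 and 41.5 CPM in Set2_ctrl, against 11.6 and 13.4 CPM in Set1_ctrl (1.75 ± 0.21, adjusted p 0.00145). RBOHD, the oxidase that makes the defence oxidative burst, had 70.5, 55.3 and 63.4 CPM in Set2_ctrl, against 24.3 and 34.0 CPM in Set1_ctrl (1.11 ± 0.19, adjusted p 0.00585). Both receptors and the oxidase were higher, although RBOHD came under 2-fold without Set1_ctrl replicate 1 (0.89). MPK11 was called higher from 2 counts in Set1_ctrl at a ratio of 31.1 with a 95% counting interval of 8.24 to 263, whereas MPK3 passed the adjusted p at a log2 fold change of 0.97 ± 0.18 without reaching 2-fold, and MPK6 had 0.06 ± 0.14 (adjusted p 0.809). The co-receptor BAK1 had 0.13 ± 0.13 (adjusted p 0.532), and the chitin receptor CERK1 had 0.47 ± 0.19 (adjusted p 0.119). The flagellin receptor FLS2, the kinase BIK1 and the transporter PEN3 were also called higher, at 1.07, 1.03 and 1.36, and RLP23 at a ratio of 11.3 with a 95% counting interval of 5.91 to 24.2. Each of these 4 calls was lost when 1 library was left out, for example without Set1_ctrl replicate 1 for FLS2 (adjusted p 0.182), PEN3 (adjusted p 0.0614) and RLP23 (adjusted p 0.117), and without Set1_ctrl replicate 2 for BIK1 (log2 fold change 0.90). When each library was left out in turn, between 9 and 13 members were called higher and none lower.

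**Figure D2:**
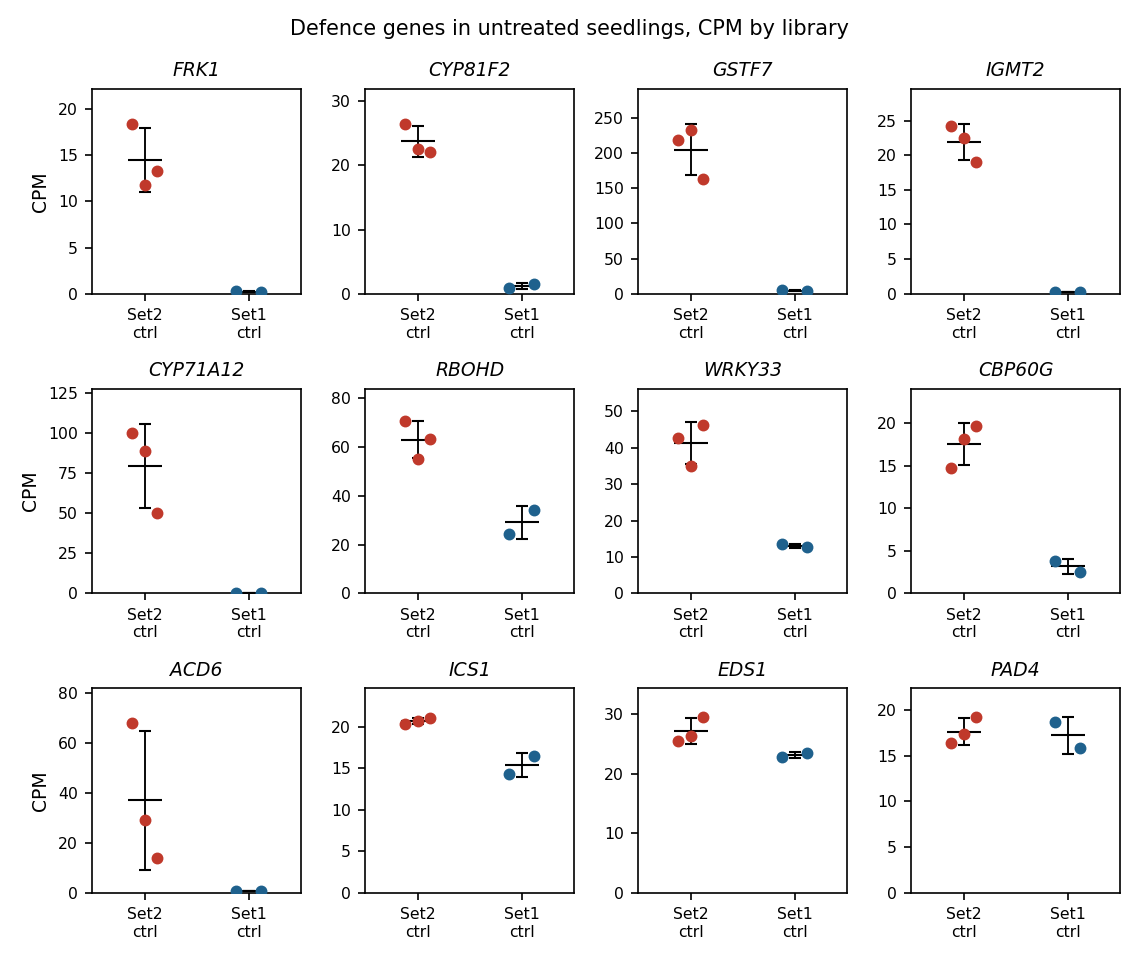
CPM of 12 defence genes in each untreated library, Set2_ctrl in red and Set1_ctrl in blue, with the mean and SD of each group (n = 3 and 2). The first 9 panels show genes called higher in Set2_ctrl, and the last 3 (ICS1, EDS1 and PAD4) show genes of SA synthesis and signalling that were not called.

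In the SA pathway the genes ICS1, EDS1, PAD4 and NPR1 were not called, whereas others, among them CBP60G, PBS3 and PR5, were higher. Of 23 tested members 11 were called higher and none lower (median 1.66). ICS1, the isochorismate synthase from which most SA derives, had 20.3, 20.7 and 21.1 CPM in Set2_ctrl, against 14.4 and 16.5 CPM in Set1_ctrl, and its log2 fold change of 0.43 ± 0.16 was not called (adjusted p 0.0925). EDS1 and PAD4, which work together upstream of SA, had 0.23 ± 0.15 (adjusted p 0.301) and 0.03 ± 0.17 (adjusted p 0.916), and the receptor NPR1 had 0.16 ± 0.16 (adjusted p 0.532). EDS1, PAD4 and NPR1 had values close to the median of all genes, and ICS1 lay above it. In the treated seedlings ICS1 had 0.48 ± 0.15 (adjusted p 0.0468), also below 2-fold. CBP60G, a transcription factor that activates ICS1, had 14.8, 18.21 and 19.7 CPM in Set2_ctrl, against 3.77 and 2.54 CPM in Set1_ctrl (2.47 ± 0.25, adjusted p 0.000758). PBS3, which conjugates isochorismate to glutamate on the way to SA, had 4.55, 6.92 and 6.12 CPM in Set2_ctrl, against 1.17 and 1.60 CPM in Set1_ctrl (2.07 ± 0.35, adjusted p 0.00565). PR5, an antimicrobial protein induced by SA, had 18.9, 14.5 and 14.9 CPM in Set2_ctrl, against 5.39 and 4.61 CPM in Set1_ctrl (1.68 ± 0.21, adjusted p 0.00173). The 3 genes kept their calls without any single library.

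Other SA genes were above Set1_ctrl in each Set2_ctrl library but varied among these libraries. ACD6, an ankyrin protein that amplifies SA signalling, had 68.0, 29.2 and 14.0 CPM in Set2_ctrl, against 0.719 and 0.848 CPM in Set1_ctrl (5.54 ± 0.78, adjusted p 0.00249, and 4.77 without Set2_ctrl replicate 1). FMO1, which makes the mobile signal N-hydroxypipecolic acid, had 4.83, 7.76 and 1.60 CPM in Set2_ctrl, against 0.0899 and 0 CPM in Set1_ctrl, a ratio of 104 with a 95% counting interval of 18.18 to 4134 from 1 count in Set1_ctrl. Its fitted log2 fold change of 6.30 was 8.23 without Set1_ctrl replicate 1 and 5.50 without replicate 2. PR1, the best known SA marker, had 200 counts in Set2_ctrl replicate 1, 4 and 3 in replicates 2 and 3, and 1 and 0 in Set1_ctrl, and did not pass the filter on low counts. Replicate 1 was the highest Set2_ctrl library for ACD6 and PR1, but not for FMO1. PR2, a glucanase, was called at 3.38, and ALD1, of pipecolic acid synthesis, at a ratio of 15.3 with a 95% counting interval of 5.66 to 58.0 from 4 counts in Set1_ctrl, and both calls were lost without Set1_ctrl replicate 1 (adjusted p 0.155 and 0.129) or replicate 2 (adjusted p 0.0639 and 0.137). PR2 was 2.29 without Set2_ctrl replicate 1. UGT76B1, which conjugates SA and related signals, was higher by 1.39 ± 0.18 and DMR6, which hydroxylates SA, by 1.66 ± 0.29. SARD1 was also called, at 1.96, and lost its call without any single Set2_ctrl library (adjusted p 0.0508 to 0.0747). The W-box described above lay before 5 of the 23 tested SA genes and 1 of the 11 called, against 20 of 26 in pattern immunity.

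WRKY factors of defence were the list with the largest share of calls: 13 of 20 tested members were higher and none lower (median 1.67). WRKY33 (AT2G38470, chromosome 2, 16108235 to 16110766), which drives camalexin synthesis and overlaps AT2G08965 and AT2G38480, had 42.8, 34.9 and 46.3 CPM in Set2_ctrl, against 13.5 and 12.6 CPM in Set1_ctrl (1.66 ± 0.18, adjusted p 0.000911). WRKY25 and WRKY26, close relatives of WRKY33, were higher by 1.67 ± 0.18 and 2.03 ± 0.23. WRKY40 had 4.41, 4.23 and 8.45 CPM in Set2_ctrl, against 0.899 and 1.04 CPM in Set1_ctrl (2.54 ± 0.44, adjusted p 0.00635), and its partners WRKY18 and WRKY60 had 1.65 ± 0.34 and 2.65 ± 0.34. These 3 factors bind each other and restrain defence. WRKY70, a regulator between SA and JA that is counted with the SA genes, had 15.5, 12.8 and 6.56 CPM in Set2_ctrl, against 3.15 and 2.17 CPM in Set1_ctrl (2.12 ± 0.39, adjusted p 0.00733). WRKY30 had 6.26, 0.988 and 3.93 CPM in Set2_ctrl, against 0 and 0 CPM in Set1_ctrl (at least 26.9-fold higher), a call lost without Set1_ctrl replicate 1 (adjusted p 0.0552), and WRKY18 was likewise lost without replicate 2 (adjusted p 0.0532). WRKY51 had 1.85, 1.98 and 1.60 CPM in Set2_ctrl, against 0.270 and 0.0942 CPM in Set1_ctrl, a ratio of 9.85 with a 95% counting interval of 3.54 to 38.0. Without Set1_ctrl replicate 1, WRKY60 reached 3.51 and WRKY51 4.05, against a fitted 3.2 for WRKY51 with it. By contrast WRKY11 and WRKY17, negative regulators of basal defence, had -0.27 ± 0.15 (adjusted p 0.223) and -0.12 ± 0.17 (adjusted p 0.642). Between 8 and 12 members were called when each library was left out. The W-box lay before 8 of the 13 called members and 14 of the 20 tested.

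In the indole branch of defence, 5 of 13 tested members were called higher and none lower (median 0.69), namely CYP71A12, IGMT1, IGMT2, IGMT3 and the transcription factor MYB51. IGMT2 (AT1G21120, chromosome 1, 7395179 to 7396823), a methyltransferase acting on indole glucosinolates after CYP81F2, had 24.2, 22.4 and 19.1 CPM in Set2_ctrl, against 0.270 and 0.283 CPM in Set1_ctrl, a ratio of 79.5 with a 95% counting interval of 36.2 to 218. IGMT1 and IGMT3 were higher by 2.18 ± 0.35 and 1.52 ± 0.22, and IGMT4 had -0.17 ± 0.19 (adjusted p 0.575). The 4 IGMT genes lie next to each other on chromosome 1, and none of them had whole counts, so that the split among them is uncertain. CYP71A12 (AT2G30750, chromosome 2, 13099486 to 13101371), which makes indole-3-acetonitrile for camalexin and related compounds, had 99.97, 88.6 and 49.8 CPM in Set2_ctrl, against 0 and 0.283 CPM in Set1_ctrl, a ratio of 578 with a 95% counting interval of 197 to 2806. It was nearly silent in Set1_ctrl, and its fitted log2 fold change of 9.02 was 8.06 without Set1_ctrl replicate 1 and 12.32 without replicate 2. PAD3, the last enzyme of camalexin synthesis, had 18.3, 5.93 and 3.79 CPM in Set2_ctrl, against 3.68 and 1.32 CPM in Set1_ctrl and was not called (adjusted p 0.0869). The early enzymes CYP79B2, CYP79B3 and CYP83B1 had 0.56, 0.08 and 0.27, below 2-fold. MYB51 had 1.11 ± 0.28, and its call was lost without Set1_ctrl replicate 2 (adjusted p 0.102), Set2_ctrl replicate 1 (adjusted p 0.0766) or Set2_ctrl replicate 3 (adjusted p 0.0812).

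More detoxification genes were called higher than lower, and catalases went in different directions. Of 22 tested members of oxidative stress and detoxification 8 were higher and 2 lower (median 0.93). GSTF2 had 222, 238 and 239.2 CPM in Set2_ctrl, against 66.2 and 53.3 CPM in Set1_ctrl (1.96 ± 0.16, adjusted p 0.000336, counts not whole), CYP81D8 had 9.53, 12.7 and 5.97 CPM in Set2_ctrl, against 0.989 and 0.377 CPM in Set1_ctrl (3.75 ± 0.48, adjusted p 0.00182), and BCB, a blue copper protein of stress, had 19.6, 18.9 and 41.7 CPM in Set2_ctrl, against 3.33 and 2.92 CPM in Set1_ctrl (3.09 ± 0.40, adjusted p 0.00179). All 3 were higher in every Set2_ctrl library, and CYP81D8 reached 4.58 without Set1_ctrl replicate 1. GSTF3 was also called, at a ratio of 11.1 with a 95% counting interval of 4.05 to 42.7 from 4 counts in Set1_ctrl, and lost its call without either Set1_ctrl library (adjusted p 0.0909 and 0.0603). CAT2, the main peroxisomal catalase of leaves, had 1396, 1808 and 1336 CPM in Set2_ctrl, against 665 and 698 CPM in Set1_ctrl (1.15 ± 0.16, adjusted p 0.00244, overlapping AT4G35080). CAT3 had 1387, 904 and 716 CPM in Set2_ctrl, against 2156 and 2491 CPM in Set1_ctrl (-1.21 ± 0.24, adjusted p 0.01), and CAT1 had -1.17 ± 0.15 (adjusted p 0.00177). CAT2 was thus higher and CAT1 and CAT3 lower, although CAT1 and CAT3 came under 2-fold with library totals. APX1, the cytosolic ascorbate peroxidase, had -0.25 ± 0.13 (adjusted p 0.223). Heat and protein folding genes were called for 2 of 9 tested members: HSP70-4 had 20.19, 29.9 and 28.1 CPM in Set2_ctrl, against 10.7 and 5.84 CPM in Set1_ctrl (1.65 ± 0.28, adjusted p 0.00549), and HSP90.1 had 1.73, a call lost without Set2_ctrl replicate 3 (adjusted p 0.0905) and without either Set1_ctrl library (adjusted p 0.0854 and 0.155).

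**Figure D3:**
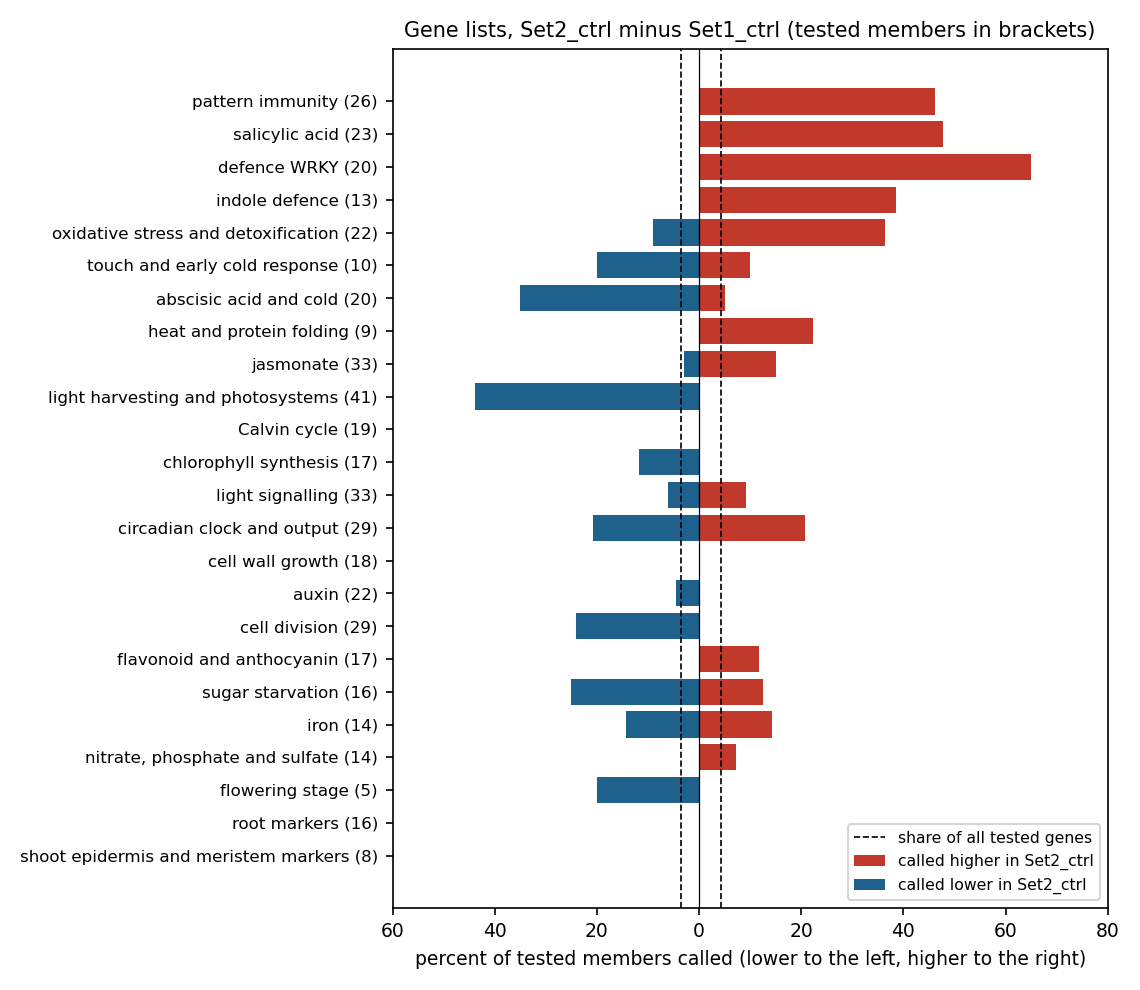
Percent of the tested members of each list called higher (red, to the right) or lower (blue, to the left) in Set2_ctrl, with the shares over all tested genes as dashed lines at 4.3% and 3.55%. The 4 defence lists lie to the right only, the lists of light harvesting, cell division, and abscisic acid and cold lie mainly to the left, and the clock list extends equally to both sides.

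Called clock genes differed by their time of day. Of 29 tested members 6 were called higher and 6 lower, and 19 passed the adjusted p without the fold threshold, which 17.3% of all tested genes did. The median was near 0 (-0.06, and 0.18 with library totals), with the called dawn and evening genes on opposite sides of it. RVE1, RVE2, RVE4, RVE7, LNK1, CDF1, CDF2 and CDF3 of the same list were not called. CCA1 (AT2G46830, chromosome 2, 19245591 to 19248915), a MYB factor of dawn, had 136, 159 and 116 CPM in Set2_ctrl, against 28.3 and 34.8 CPM in Set1_ctrl (2.12 ± 0.19, adjusted p 0.000515). Its partner LHY (AT1G01060, chromosome 1, 33365 to 37871) had 83.0, 98.9 and 108 CPM in Set2_ctrl, against 10.96 and 16.5 CPM in Set1_ctrl (2.82 ± 0.22, adjusted p 0.000336). RVE8, a related MYB factor that activates evening genes, had 38.7, 37.3 and 31.3 CPM in Set2_ctrl, against 5.66 and 7.82 CPM in Set1_ctrl (2.41 ± 0.20, adjusted p 0.000346). All 3 morning MYB genes were several-fold higher in every Set2_ctrl library. LNK2, a coactivator that works with RVE8, had 1.43 ± 0.21 (adjusted p 0.00277), and COL1 and COL2, relatives of CONSTANS, had 1.71 ± 0.19 and 1.15 ± 0.18. LNK2, COL1 and COL2 overlap other genes and had counts that were not whole in some or all libraries.

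Genes of the late day and evening were lower. PRR5 (AT5G24470, chromosome 5, 8356204 to 8358546), a repressor of CCA1 and LHY, had 9.67, 2.96 and 2.19 CPM in Set2_ctrl, against 43.4 and 46.9 CPM in Set1_ctrl (-3.19 ± 0.43, adjusted p 0.00206, and -4.11 without Set2_ctrl replicate 1). FKF1 (AT1G68050, chromosome 1, 25508639 to 25510907), a blue light receptor of photoperiodic flowering that overlaps AT1G68060, had 2.13, 0.988 and 0.583 CPM in Set2_ctrl, against 11.4 and 12.2 CPM in Set1_ctrl (-3.24 ± 0.38, adjusted p 0.00133, and -3.87 without Set2_ctrl replicate 1). ELF4, of the evening complex, had 1.28, 1.13 and 1.46 CPM in Set2_ctrl, against 9.17 and 6.59 CPM in Set1_ctrl (-2.60 ± 0.31, adjusted p 0.00144). The highest Set2_ctrl library stayed below the lowest Set1_ctrl library for each of these genes. PRR3 had -2.36 ± 0.37 (adjusted p 0.00422). GRP7 (AT2G21660, chromosome 2, 9265084 to 9266557), an RNA-binding protein whose transcript peaks in the evening, had 133, 122 and 139.6 CPM in Set2_ctrl, against 940.5 and 653 CPM in Set1_ctrl (-2.60 ± 0.17, adjusted p 0.000171), and its relative GRP8 had -1.27 ± 0.22 (adjusted p 0.00575), which came under 2-fold without Set1_ctrl replicate 1 (-0.94). TOC1 had 22.04, 20.9 and 22.4 CPM in Set2_ctrl, against 36.0 and 42.6 CPM in Set1_ctrl (-0.85 ± 0.15, adjusted p 0.0059) and GI had -0.76 ± 0.20 (adjusted p 0.0341), both past the adjusted p but below 2-fold, as were ELF3 (-0.80 ± 0.18) and LUX (-0.57 ± 0.16). The genes between morning and evening, PRR9 and PRR7, had 0.62 ± 0.26 (adjusted p 0.127) and -0.38 ± 0.20 (adjusted p 0.216), neither of which passed. The counts were stable when each library was left out, with 6 called higher throughout and 6 or 7 lower.

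The evening element AAAATATCT, which CCA1, LHY and RVE8 proteins bind, was searched on either strand in the same 300 bases. It was found before 7.94% of the genes called lower, 1.94% of those called higher and 2.92% of all tested. Of the 6 clock members called lower it lay before PRR5, FKF1, GRP7 and GRP8, and of the 6 called higher only before COL2. ELF4 and PRR3, also called lower, held no match. The stretches before PRR5 (chr5:8358547-8358846, minus strand), FKF1 (chr1:25508439-25508638, plus strand), TOC1 (chr5:24674803-24674962, plus strand) and GRP7 (chr2:9266558-9266657, minus strand) are given as examples that hold the element. TOC1 was not called. They are printed as above, with the evening element in capitals in either orientation.
PRR5: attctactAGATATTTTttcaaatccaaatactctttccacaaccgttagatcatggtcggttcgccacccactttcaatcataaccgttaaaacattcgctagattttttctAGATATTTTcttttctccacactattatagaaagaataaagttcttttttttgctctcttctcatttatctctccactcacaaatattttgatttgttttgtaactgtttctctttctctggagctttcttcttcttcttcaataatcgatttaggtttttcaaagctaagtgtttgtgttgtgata
FKF1: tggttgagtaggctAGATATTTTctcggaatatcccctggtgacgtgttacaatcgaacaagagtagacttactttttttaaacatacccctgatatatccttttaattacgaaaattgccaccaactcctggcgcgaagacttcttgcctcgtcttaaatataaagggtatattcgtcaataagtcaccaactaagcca
TOC1: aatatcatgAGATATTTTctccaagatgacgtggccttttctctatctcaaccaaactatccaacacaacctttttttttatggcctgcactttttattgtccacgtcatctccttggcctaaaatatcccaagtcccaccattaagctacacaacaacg
GRP7: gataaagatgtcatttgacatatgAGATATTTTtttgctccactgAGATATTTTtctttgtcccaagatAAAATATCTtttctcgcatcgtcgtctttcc
GRP7 holds the element 3 times within 100 bases, PRR5 holds it at 2 places, and FKF1 and TOC1 hold it once.

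**Figure D4:**
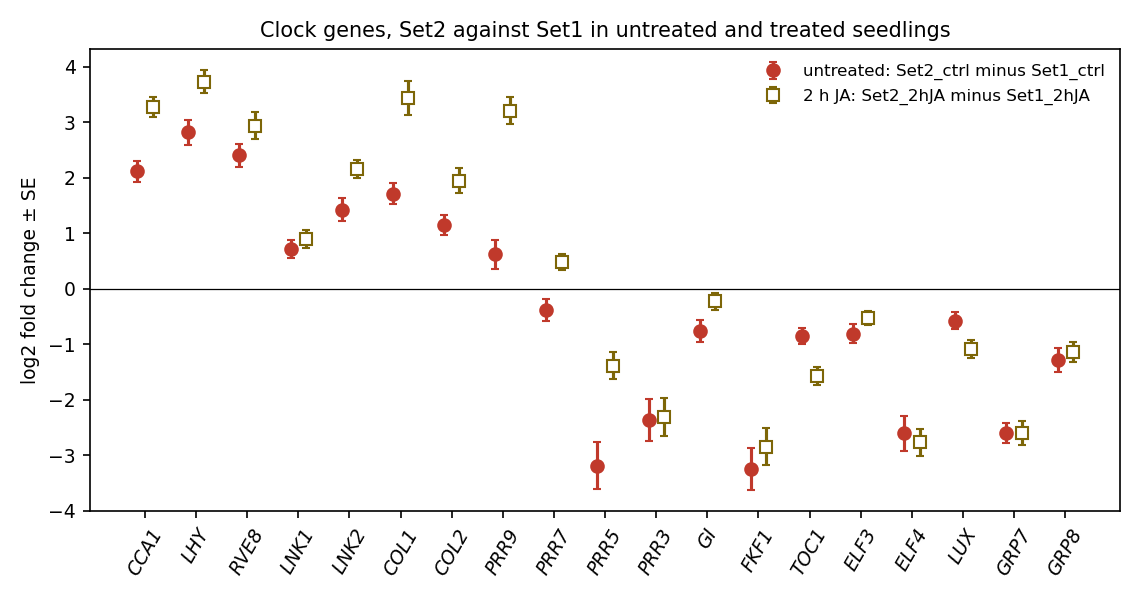
Log2 fold change ± SE of 19 of the 29 tested clock genes, ordered from morning genes at the left to evening genes and outputs at the right. The genes were chosen and include every called member. RVE1, RVE2, RVE4, RVE7, CDF1, CDF2, CDF3, ZTL, LKP2 and CHE, none of them called, are not shown. Set2_ctrl minus Set1_ctrl is shown as filled circles and Set2_2hJA minus Set1_2hJA as open squares. Values pass from positive for CCA1, LHY and RVE8 to negative for FKF1, ELF4 and GRP7 in both comparisons, and PRR9, PRR5 and COL1 have the squares that lie furthest above their circles.

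Nuclear genes for light harvesting and the photosystems were lower together. Of 41 tested members 18 were called lower and none higher, 37 passed the adjusted p without the fold threshold, and 40 had a negative value (median -0.95). The summed level of the list was 105399, 98789 and 79975 CPM in Set2_ctrl, against 199929 and 198600 CPM in Set1_ctrl. LHCB1.4, an antenna protein of photosystem II, had 1521, 1300.5 and 1121 CPM in Set2_ctrl, against 6794 and 6717 CPM in Set1_ctrl (-2.36 ± 0.14, adjusted p 0.000171). LHCB6, a minor antenna protein, had 2388, 2457 and 1993 CPM in Set2_ctrl, against 6191 and 6310.2 CPM in Set1_ctrl (-1.46 ± 0.12, adjusted p 0.000346). LHCA1, of the photosystem I antenna, had 4023, 3531 and 2967 CPM in Set2_ctrl, against 8329 and 8823 CPM in Set1_ctrl (-1.29 ± 0.14, adjusted p 0.000868). Calls covered both antennae as well as subunits of photosystem I such as PSAK (-1.38 ± 0.14) and PSAE1 (-1.39 ± 0.13). LHCB1.1 had -0.95 ± 0.11 (adjusted p 0.00132), just under 2-fold. LHCB4.3 was the only member with a positive value (0.77 ± 0.24, adjusted p 0.0573). The LHCB1 and LHCB2 genes and LHCB6 had counts that were not whole, so that the split among near-identical genes is uncertain. With library totals the calls were 9 lower and 1 higher (median -0.71), with limma on TPM 4 lower and 1 higher (median -0.53), and leaving out each library gave 15 to 22 lower.

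The Calvin cycle, which fixes carbon dioxide, gave no call. None of its 19 tested members was called (median -0.25, and 0.17 with limma on TPM), where 1 was called higher. RBCS1A, the main gene of the small subunit of Rubisco, had 13982, 13544 and 12739 CPM in Set2_ctrl, against 20444 and 20756 CPM in Set1_ctrl (-0.62 ± 0.09, adjusted p 0.003). RBCS1B had 1831, 1875 and 1680.4 CPM in Set2_ctrl, against 1061 and 1148 CPM in Set1_ctrl (0.70 ± 0.12, adjusted p 0.00602). The pair went in opposite directions below 2-fold, with counts shared between RBCS genes. RCA, Rubisco activase, had -0.02 ± 0.12 (adjusted p 0.907) and PRK, phosphoribulokinase, -0.25 ± 0.13 (adjusted p 0.207). In chlorophyll synthesis, 2 of 17 tested members were lower and both encode the light-dependent oxidoreductases that make chlorophyllide. PORB had 302, 144 and 121 CPM in Set2_ctrl, against 1494 and 1629.9 CPM in Set1_ctrl (-3.05 ± 0.34, adjusted p 0.00106) and overlaps AT4G27450. PORA had 4.27, 2.68 and 1.17 CPM in Set2_ctrl, against 12.6 and 10.4 CPM in Set1_ctrl (-2.08 ± 0.38, adjusted p 0.00777), a call lost without Set1_ctrl replicate 1 (adjusted p 0.056), and PORC had -0.56 ± 0.19 (adjusted p 0.0703). HEMA1, at the entry of tetrapyrrole synthesis, had -0.22 ± 0.14 (adjusted p 0.314).

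Light signalling gave few calls in either direction. Of 33 tested members 3 were higher (9.09%, beside 4.3% of all tested genes) and 2 lower (6.06%, beside 3.55%), with a median of 0.04. The counts were 1 and 1 without Set1_ctrl replicate 1, and 7 and 0 with limma on TPM (median 0.39). PHYA and PHYB, the main red and far-red light receptors, had -0.19 ± 0.18 and 0.41 ± 0.18, and CRY1, a blue light receptor, had -0.21 ± 0.14. HY5, the central factor of light-grown development, had 7.68, 9.74 and 9.76 CPM in Set2_ctrl, against 11.9 and 7.06 CPM in Set1_ctrl (-0.06 ± 0.26, adjusted p 0.886). Its homologue HYH had 25.2, 29.4 and 29.4 CPM in Set2_ctrl, against 10.8 and 8.19 CPM in Set1_ctrl (1.56 ± 0.19, adjusted p 0.00137). HYH was thus called and HY5 was not, and the difference between the 2 genes was not tested. ELIP2, a chlorophyll-binding protein of strong light, had 22.3, 61.7 and 171 CPM in Set2_ctrl, against 10.8 and 14.7 CPM in Set1_ctrl (2.74 ± 0.71, adjusted p 0.0315), and its call was lost without Set1_ctrl replicate 1 (adjusted p 0.167) or replicate 2 (adjusted p 0.0956) and was 1.73 without Set2_ctrl replicate 3. ELIP1 had 1.35 ± 0.27 and was lost without Set1_ctrl replicate 1 (adjusted p 0.0759). PIF4, which drives growth in warmth and shade, had 49.2, 54.1 and 41.4 CPM in Set2_ctrl, against 109 and 133 CPM in Set1_ctrl (-1.33 ± 0.17, adjusted p 0.00176), whereas PIF3, PIF5 and PIF7 had 0.04 ± 0.21, 0.32 ± 0.18 and -0.33 ± 0.15. BBX28, a B-box protein that restrains HY5, had 32.6, 37.1 and 37.0 CPM in Set2_ctrl, against 46.1 and 42.7 CPM in Set1_ctrl (-0.32 ± 0.14, adjusted p 0.151). PAR1, a shade gene, was called lower at -1.39 and lost its call without Set1_ctrl replicate 1 (adjusted p 0.187).

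Several cold-regulated genes were lower in Set2_ctrl. Of 20 tested members of abscisic acid and cold 7 were lower and 1 higher (median -0.87). RD29A, a classical target of CBF factors and abscisic acid, had 66.0, 58.6 and 38.3 CPM in Set2_ctrl, against 298 and 179 CPM in Set1_ctrl (-2.13 ± 0.27, adjusted p 0.00162). KIN2 had 68.5, 81.9 and 46.8 CPM in Set2_ctrl, against 315 and 234 CPM in Set1_ctrl (-2.06 ± 0.23, adjusted p 0.0011). COR15A, which protects chloroplast membranes in frost, had 18.5, 17.8 and 5.97 CPM in Set2_ctrl, against 68.1 and 48.8 CPM in Set1_ctrl (-2.05 ± 0.36, adjusted p 0.00657). The 3 genes were lower in every Set2_ctrl library. COR15B had 10.4, 2.68 and 1.02 CPM in Set2_ctrl, against 52.0 and 30.5 CPM in Set1_ctrl (-3.13 ± 0.58), a value of -4.45 without Set2_ctrl replicate 1 and a call lost without Set1_ctrl replicate 1 (adjusted p 0.0574). KIN1, LTI30 and COR47 had log2 fold changes of -1.70 ± 0.28, -1.45 ± 0.26 and -1.17 ± 0.24, and LTI30 and COR47 came under 2-fold without Set1_ctrl replicate 1 (-0.93 and -0.67). CBF factors, which act upstream, were counted with the touch and early cold genes, where 1 of 10 tested members was higher and 2 lower (median 0.26). CBF2 had 0.711, 1.13 and 0.291 CPM in Set2_ctrl, against 3.95 and 3.01 CPM in Set1_ctrl (-2.27 ± 0.49, adjusted p 0.0156), and CBF3 had -1.93 ± 0.52 (adjusted p 0.0357). Both CBF calls were lost without Set1_ctrl replicate 1 (adjusted p 0.0956 and 0.127). NCED3, the regulated step of abscisic acid synthesis, had -0.87 ± 0.28 (adjusted p 0.0656), and the catabolic CYP707A3 was called higher (1.48 ± 0.32), a call lost without Set1_ctrl replicate 2 (adjusted p 0.0505). Without Set1_ctrl replicate 1, 4 members were called lower. The touch gene TCH3, a calmodulin-like protein overlapping AT2G09220 and AT2G41105, had 89.6, 57.4 and 163 CPM in Set2_ctrl, against 21.0 and 16.2 CPM in Set1_ctrl (2.47 ± 0.41, adjusted p 0.0049), and TCH2 and TCH4 had 0.50 ± 0.27 (adjusted p 0.223) and 0.60 ± 0.31 (adjusted p 0.213).

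Growth genes divided by process. In cell division 7 of 29 tested members were lower and none higher (median -0.73), 16 passed the adjusted p without the fold threshold, and 1 was called with library totals (median -0.49). The called members were KNOLLE, AUR1, AUR2, CDC20.1, CYCA1;1, CYCB1;2 and CYCB1;4, which act in mitosis and cytokinesis. Leaving out each library gave 5 to 10 lower, and AUR1 came under 2-fold without Set1_ctrl replicate 2 (-0.90). KNOLLE, the syntaxin of the cell plate, had 46.6, 41.5 and 36.1 CPM in Set2_ctrl, against 112 and 85.6 CPM in Set1_ctrl (-1.26 ± 0.18, adjusted p 0.00249, counts not whole). AUR2, an Aurora kinase, had 12.1, 12.7 and 12.7 CPM in Set2_ctrl, against 32.3 and 26.7 CPM in Set1_ctrl (-1.24 ± 0.16, adjusted p 0.00179), and CDC20.1, an activator of the anaphase-promoting complex, had 52.3, 50.2 and 46.2 CPM in Set2_ctrl, against 102 and 128 CPM in Set1_ctrl (-1.22 ± 0.16, adjusted p 0.00178). CYCB1;1, a cyclin of G2 and mitosis, had 11.8, 11.01 and 11.1 CPM in Set2_ctrl, against 19.95 and 22.04 CPM in Set1_ctrl (-0.89 ± 0.16, adjusted p 0.00685), under 2-fold. The 5 MCM helicase subunits in the list, which act in DNA replication, had positive values between 0.06 for MCM7 and 0.60 for MCM3, none called. In cell wall growth none of 18 tested expansin and XTH genes was called (median -0.04, and 0.19 with library totals). EXPA8 had 78.1, 111 and 42.1 CPM in Set2_ctrl, against 121 and 130.3 CPM in Set1_ctrl (-0.71 ± 0.32, adjusted p 0.154). Of 22 tested auxin genes IAA29 alone was called (lower, 4.55% beside 3.55% of all tested genes). It had -1.92 ± 0.47. Its call was lost without Set2_ctrl replicate 2 (adjusted p 0.0799) or replicate 3 (adjusted p 0.068). The call was also lost without Set1_ctrl replicate 1 (log2 fold change -1.78) or replicate 2 (-2.04). IAA19 had 0.71 ± 0.24 (adjusted p 0.0696).

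In the JA pathway, which the treatment addresses, 5 of 33 tested members were higher at rest (15.2%, beside 4.3% of all tested genes) and 1 was lower, with a median of 0.05. Between 2 and 5 were higher when each library was left out. MYC2, the master transcription factor of the pathway, had 28.2, 11.9 and 7.14 CPM in Set2_ctrl, against 15.5 and 24.5 CPM in Set1_ctrl (-0.34 ± 0.46, adjusted p 0.639), with Set2_ctrl replicate 1 above and replicate 3 below both Set1_ctrl libraries. LOX2, a lipoxygenase of JA synthesis, had 631, 415 and 316 CPM in Set2_ctrl, against 364 and 579 CPM in Set1_ctrl (-0.05 ± 0.29, adjusted p 0.916). COI1, the JA receptor, had 0.20 ± 0.14 (adjusted p 0.363), and the repressor JAZ1 had 0.26 ± 0.17 (adjusted p 0.327). None of these core genes was called. The repressor gene JAZ6 had 37.8, 37.3 and 33.7 CPM in Set2_ctrl, against 13.0 and 14.8 CPM in Set1_ctrl (1.38 ± 0.15, adjusted p 0.0011) and kept its call without any single library, while JAZ5 (1.85) lost its call when any of the 5 libraries was left out (adjusted p 0.0619 to 0.121). PDF1.2A, a defensin induced by JA with ethylene, had 17.8, 24.6 and 2.48 CPM in Set2_ctrl, against 0.0899 and 0.0942 CPM in Set1_ctrl, a ratio of 164 with a 95% counting interval of 45.0 to 1358, and its activator ORA59 had 1.71, 1.98 and 2.33 CPM in Set2_ctrl, against 0.0899 and 0.0942 CPM in Set1_ctrl, a ratio of 21.8 with a 95% counting interval of 5.66 to 186. The call of PDF1.2A was lost without Set1_ctrl replicate 1 (adjusted p 0.0613), as was that of LOX4 (2.1, adjusted p 0.0664). VSP2, a storage protein of the wound branch, had 79.9, 76.5 and 9.62 CPM in Set2_ctrl, against 69.4 and 69.0 CPM in Set1_ctrl (-0.32 ± 0.61, adjusted p 0.752), low in Set2_ctrl replicate 3 only. AOC2, of JA synthesis, was called lower at -1.26 and lost its call without Set1_ctrl replicate 1 (adjusted p 0.104) and others.

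The remaining lists were mixed, and several held few calls, to be read beside the 4.3% higher and 3.55% lower of all tested genes. Of 16 tested genes of sugar starvation 2 were higher and 4 lower (median -0.17, and 0.07 with library totals). DIN2, a beta-glucosidase, had 7.54, 11.3 and 8.45 CPM in Set2_ctrl, against 0.359 and 0.188 CPM in Set1_ctrl, a ratio of 33.0 with a 95% counting interval of 14.9 to 91.0, and KMD1, an F-box protein, had 16.9, 28.5 and 21.7 CPM in Set2_ctrl, against 74.7 and 61.7 CPM in Set1_ctrl (-1.61 ± 0.21, adjusted p 0.0019). BCAT2, of branched-chain amino acid breakdown, was called higher at 2.01 and lost its call without Set1_ctrl replicate 1 (adjusted p 0.0641). EXL2 and AKINBETA1 were called lower at -1.57 ± 0.16 and -1.39 ± 0.19. The called sugar-responsive genes thus lay on both sides. In iron nutrition 2 of 14 were higher and 2 lower: the ferritins FER1 and FER4, which store iron, had -1.03 ± 0.17 and -1.20 ± 0.15, and the reductase FRO3 had 1.22 ± 0.22. FER1 came under 2-fold without Set1_ctrl replicate 1 (-0.81), and FRO3 lost its call (adjusted p 0.052). With library totals the iron list had 6 higher and none lower. BHLH39, a factor of iron deficiency, had 13.7, 1.41 and 3.21 CPM in Set2_ctrl, against 0.180 and 0 CPM in Set1_ctrl a ratio of 66.3 with a 95% counting interval of 18.0 to 554 and a call lost without either Set1_ctrl library (adjusted p 0.0866 and 0.084). Of flavonoid and anthocyanin genes 2 of 17 were higher: DFR (1.08 ± 0.23), lost without Set1_ctrl replicate 1 (adjusted p 0.0861), and MYB111 (1.44 ± 0.42), lost without Set1_ctrl replicate 1 (adjusted p 0.198) among others. Chalcone synthase CHS had 149, 233 and 244 CPM in Set2_ctrl, against 137 and 126 CPM in Set1_ctrl (0.66 ± 0.22, adjusted p 0.0644). Of nitrate, phosphate and sulfate genes only PAP17, a phosphatase of phosphate deficiency, was called among 14 (1.88 ± 0.44, list median 0.79), and it was lost without Set1_ctrl replicate 1 (adjusted p 0.0911) or replicate 2 (adjusted p 0.095). The list had 5 higher with library totals, 5 with limma on TPM and 3 without Set2_ctrl replicate 3. FLC, the floral repressor, was the single call among 5 genes of flowering stage. It had 0.711, 1.27 and 1.31 CPM in Set2_ctrl, against 7.37 and 5.65 CPM in Set1_ctrl (-2.55 ± 0.36, adjusted p 0.00251) and overlaps AT5G01675, whereas SOC1 had -0.13 ± 0.31 (adjusted p 0.801).

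The same difference was measured in the treated seedlings, which share no library with the untreated ones. They come from the same 2 experiments, so that a difference in handling between the experiments would enter both comparisons. Of 19638 genes tested there, 861 (4.38%) were higher in Set2_2hJA and 496 (2.53%) were lower. Among 19015 genes tested in both comparisons, 470 were higher in both, which is 58.3% of the 806 higher without JA and 57.2% of the 822 higher with JA. Another 276 were lower in both, 41.6% of 664 and 57.7% of 478, and 1 was called in opposite directions. That gene was DFR, of anthocyanin synthesis, named after its values were seen, with 22.8, 22.7 and 15.4 CPM in Set2_ctrl, against 8.18 and 11.02 CPM in Set1_ctrl (1.08), and 18.4, 58.7 and 48.9 CPM in Set2_2hJA, against 82.3 and 95.8 CPM in Set1_2hJA (-1.09). Its untreated call was lost without Set1_ctrl replicate 1 (log2 fold change 0.88). Of the 806 genes higher without JA, 791 had a positive difference with JA (median 1.37), and of the 664 lower ones 633 had a negative difference (median -0.93). Set2_2hJA replicate 1 stood apart with counts in 28733 nuclear genes, against 23082 to 25405 in the other Set2 libraries, and without it 403 genes were higher and 274 lower in both.

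The defence lists had calls after JA as well, with smaller medians for SA, WRKY and indole genes than without JA. Pattern immunity had 12 of 27 members higher with JA (10 of 25 without Set2_2hJA replicate 1), SA genes 6 of 24 and defence WRKY genes 7 of 21 (6 of 19), with none lower. The SA median was 0.87 with JA (0.62 without that library) beside 1.66 without JA, and the WRKY median was 1.32 (0.81) beside 1.67. Indole defence had 5 higher and none lower of 15 with JA (4 and 1 of 14 without that library), with a median of 0.10 (-0.06) beside 0.69. Whether these medians differ was not tested. The fitted log2 fold changes with JA were 1.92 for FRK1, 3.31 for CYP81F2, 4.24 for CYP71A12 and 1.66 for WRKY33. Beside them stand 5.89, 4.29, 9.02 and 1.66 without JA, and for none of these 4 genes did the change of the difference with treatment pass its test. The clock list had 8 higher and 8 lower of 30 with JA, and the values were 3.27 for CCA1, 3.73 for LHY, 3.21 for PRR9, -1.38 for PRR5 and -2.59 for GRP7. Cold genes were lower with JA in 11 of 20 members, among them COR15A (-3.82) and RD29A (-3.32). The antenna list had 5 lower of 41 (median -0.69), a count of 1 lower and 1 higher without Set2_2hJA replicate 1, and cell division had no call in 29 (median -0.43). Light signalling had 10 higher of 33 with JA (8 without that library), and flavonoid genes had 5 lower of 18 (2 without Set2_2hJA replicate 1).

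**Figure D5:**
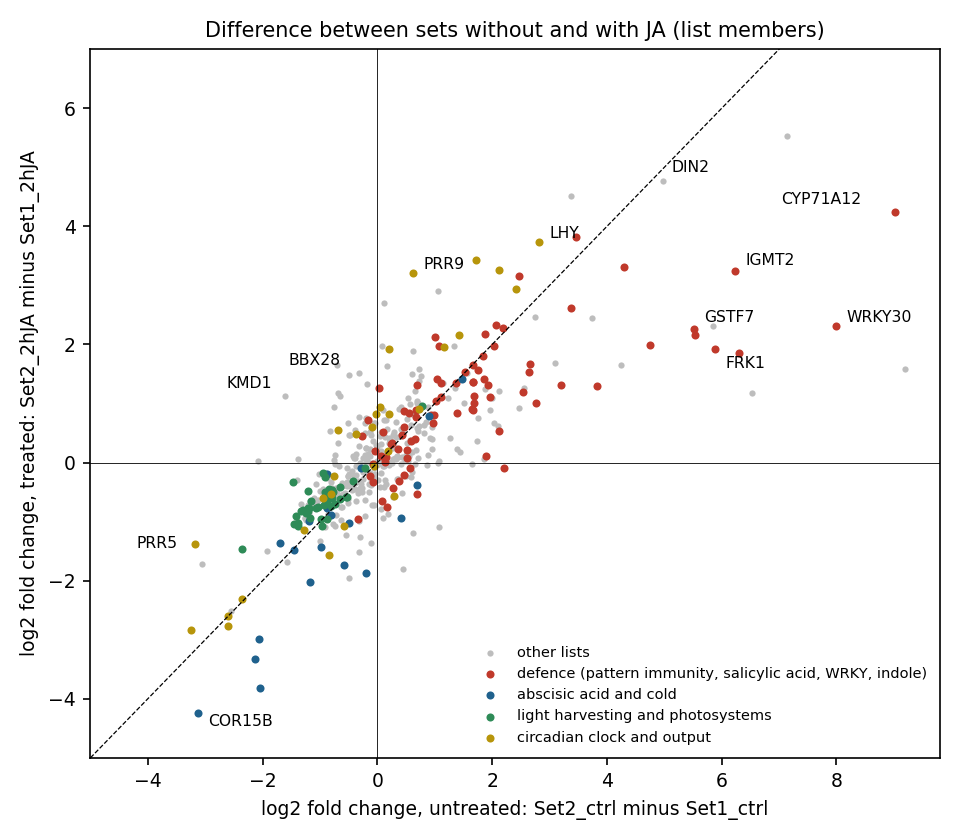
Log2 fold change between the sets without JA (horizontal axis) and with JA (vertical axis) for members of all lists, with defence, cold, antenna and clock genes in colour and the line of equal values dashed. FRK1, GSTF7, IGMT2 and CYP71A12 lie below the line, with larger differences between untreated than between treated seedlings, and PRR9 lies above it.

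Whether a difference between the sets depended on treatment was tested as an interaction over all 10 libraries. Of 20129 genes 6 passed an adjusted p of 0.05 (0.0298%), and 1504 passed 0.05 before adjustment. The count was 0 without Set1_ctrl replicate 2, Set2_ctrl replicate 1 or Set2_2hJA replicate 3, 15 without Set2_2hJA replicate 1, and 139 with DESeq2. All 6 genes lost the call without either Set1_ctrl library. GSTF7, GSTF6, IGMT2 and AT1G28600 had a larger Set2 minus Set1 value without JA than with JA, and JAC1 and BBX28 had a smaller one. The first 3 are genes of defence. Their level in Set1_ctrl was far below that in Set1_2hJA, and their levels in Set2_ctrl and Set2_2hJA differed less. CPM of untreated and treated libraries were scaled separately, so that levels can be compared between treatments only roughly. For the other genes of the lists a change of the difference with treatment was not shown.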

How the data were processed

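Per the labels, RNA of whole seedlings was extracted with the RNeasy Plant Mini Kit and libraries were made with the TruSeq Stranded mRNA kit. The authors aligned reads to TAIR10 with STAR 2.7.5a and quantified genes with RSEM 1.3.3, and per the file headers each library holds an expected count and a TPM value (a level normalised for transcript length and library size) per gene. Expected counts were used for all tests and rounded to whole numbers, and the deposited TPM values served as an alternative. Tables of the authors' own comparisons made with edgeR 3.36.0 hold their fold changes and p-values and were not used.

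Plastid (133), mitochondrial (152) and rRNA (4) genes were removed before scaling. Low genes were filtered by edgeR's filterByExpr, libraries were scaled by TMM, and Set2_ctrl was tested against Set1_ctrl with the quasi-likelihood test of edgeR 4.0.16 in R 4.3.3, with Benjamini-Hochberg adjustment over all tested genes. Fold changes are log2(Set2_ctrl over Set1_ctrl), with the SE taken from the F statistic. Set2_2hJA was tested against Set1_2hJA in the same way, and the interaction was fitted over all 10 libraries. CPM of the treated libraries carry the TMM factors of their own comparison. The common biological coefficient of variation was 0.165. The larger depth of Set1_ctrl makes low levels more precise there than in Set2_ctrl. For a gene with no count in 1 group the fold is a bound against 3 counts over that group, and with 1 to 10 counts it is the ratio of summed counts with an exact 95% interval. Bounds and intervals cover counting error only and leave out the spread among libraries. The code was tested on simulated data.

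Alternatives were DESeq2 1.42.0, limma 3.58.1 on log2(TPM + 1), other scalings and filters, and leaving out each library. The members, the 25 gene lists and the tests were chosen with earlier results of these data known. Of 539 list entries, 511 matched the annotation by symbol and 20 by another spelling, and 8 were left out. Named genes were those of the lists and the 8 largest increases and 8 largest decreases among called genes whose average log2 CPM reached 3 and whose groups did not overlap, with other members given beside the count of their list. Coordinates and promoter sequences, of up to 300 bases before the annotated start, come from RefSeq's TAIR10.1.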

Additional observations from a re-analysis of the deposited data

Results flagged for a closer look

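For 6 genes the difference between the sets itself differed between untreated and treated seedlings, by the interaction term of edgeR's quasi-likelihood test. The values below are the untreated difference minus the treated difference on the log2 scale. All 6 lost the call without Set1_ctrl replicate 1 (lowest adjusted p 0.0556), Set1_ctrl replicate 2 (0.0988), Set2_ctrl replicate 1 (0.0548) or Set2_2hJA replicate 3 (0.0862), and all but GSTF7 without Set1_2hJA replicate 2. IGMT2 was also lost with library totals (adjusted p 0.0527) and with the replicate block (0.065), and AT1G28600 with the block (0.0836). GSTF7 had 3.25 (adjusted p 0.0468), with 217, 232 and 163 CPM in Set2_ctrl, against 4.85 and 4.05 CPM in Set1_ctrl, and 186, 269 and 216 CPM in Set2_2hJA, against 28.6 and 63.7 CPM in Set1_2hJA. GSTF6 had 1.77, with 174, 171 and 160.4 CPM in Set2_ctrl, against 24.6 and 24.9 CPM in Set1_ctrl, and 176, 237 and 269 CPM in Set2_2hJA, against 98.5 and 128 CPM in Set1_2hJA. IGMT2 had 3.02, with 24.2, 22.4 and 19.1 CPM in Set2_ctrl, against 0.270 and 0.283 CPM in Set1_ctrl, and 26.6, 21.2 and 20.3 CPM in Set2_2hJA, against 1.99 and 2.75 CPM in Set1_2hJA. In these 3 genes, with counts that were not whole, the gap between the sets was wider in untreated seedlings.

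AT1G28600 had 1.41, with 55.6, 54.9 and 57.3 CPM in Set2_ctrl, against 26.2 and 25.2 CPM in Set1_ctrl, and 103, 87.1 and 88.3 CPM in Set2_2hJA, against 99.9 and 125 CPM in Set1_2hJA. JAC1, a protein of chloroplast movement, had -1.81, with 61.6, 71.3 and 53.8 CPM in Set2_ctrl, against 42.4 and 49.2 CPM in Set1_ctrl, and 23.5, 33.8 and 29.9 CPM in Set2_2hJA, against 5.73 and 6.33 CPM in Set1_2hJA. BBX28 had -1.82 (adjusted p 0.0295), with 32.6, 37.1 and 37.0 CPM in Set2_ctrl, against 46.1 and 42.7 CPM in Set1_ctrl, and 15.5, 20.9 and 18.17 CPM in Set2_2hJA, against 6.47 and 6.27 CPM in Set1_2hJA. For JAC1 and BBX28 the treated Set1 libraries were the lowest of all.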

How the results depend on the processing

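No gene called with TMM scaling changed sign under any alternative run. With library totals alone 1372 genes were higher and 380 lower, with limma on log2(TPM + 1) 1611 and 237, with a test against a 2-fold threshold 209 and 90, and without a fold threshold 1512 and 1802. The main counts were 825 and 681. Leaving out each library gave 586 to 950 higher and 470 to 827 lower. Without Set1_ctrl replicate 1, which held most rRNA, 485 of the 825 and 403 of the 681 kept their calls. Among treated seedlings, where 861 were higher and 496 lower, library totals gave 279 lower and leaving out each library 540 to 937 higher and 434 to 572 lower. The interaction count of 6 was 163 without the filter and 139 with DESeq2, and 0 to 15 when each library was left out.

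Replicate numbers follow the sample titles, and the names of the 2 Set1_ctrl tables carry them the other way round, which bears on the block and the check of pairing. Deviations of same-numbered Set2_ctrl and Set1_ctrl libraries from their group means had correlations of -0.10 for both numbers. With only 2 Set1_ctrl libraries, whose deviations mirror each other, the 2 values are not separate checks. Whether untreated and treated libraries of the same number within a set are paired was not checked. The rRNA share was 11.6% and 8.98% in replicate 1 of Set1_ctrl and Set1_2hJA, and 1.32% and 0.653% in replicate 2. With the replicate number as a block 797 genes were higher and 625 lower. Only Set2_ctrl has a replicate 3, so that this contrast rests on replicates 1 and 2. CSD2, uncalled in the main comparison (log2 fold change 0.11), was -1.16 with the block (adjusted p 0.0376). It had 75.5 and 306 CPM in replicates 1 and 2 of Set2_ctrl, against 376 and 314 CPM in Set1_ctrl. Its level in Set2_ctrl replicate 3, which the block leaves out of the contrast, was 739 CPM.

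Set1_ctrl has 2 libraries, so that leaving 1 out assumes that the remaining one varies like Set2_ctrl. Depth in Set2_ctrl limits genes of few counts, for which ratios are uncertain by several-fold.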

Other observations

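Gene families, which share some members with the lists, were counted after their values had been seen, so that no test is attached. Of 27 tested cysteine-rich receptor-like kinases (CRK), a family linked to pathogen responses, 15 were higher in Set2_ctrl and none lower (median log2 fold change 1.13), beside 4.3% higher over all tested genes. With JA 7 of 26 were higher. Of 37 receptor-like proteins 12 were higher and none lower, among them RLP23 of the pattern immunity list, and 13 of 36 with JA. Of 14 ABCC transporters, which carry conjugates into the vacuole, 8 were higher without JA (median 1.2) and 8 with JA. Of 14 cyclic nucleotide gated channels 5 were higher, among them CNGC11 and CNGC12, and of 12 glutamate receptor-like channels 4, beside 5 and 3 with JA. The B-box (BBX) family had 1 higher and 4 lower of 18 without JA, and 8 higher and 3 lower of 18 with JA. Other families counted had smaller shares called higher than the CRK genes. ABCG transporters had 7 higher of 37, and 7 higher and 1 lower of 36 with JA. UGT glycosyltransferases had 10 higher and 1 lower of 46, and 6 and 2 with JA. GST transferases had 8 higher of 33, and 5 higher and 4 lower with JA. NAC factors had 8 higher of 50, and 3 with JA.

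Some genes of copper supply varied among the Set2_ctrl libraries, and were also picked after their values had been seen. Of 18 looked at, 7 had a range of at least 2 on the log2(CPM + 1) scale within Set2_ctrl, and 6, FSD2, FSD3, COPT1, SPL7, PETE1 and PETE2, had a range under 0.5. CSD2, the copper/zinc superoxide dismutase of the chloroplast, had 75.5, 306 and 739 CPM in Set2_ctrl, against 376 and 314 CPM in Set1_ctrl. Its cytosolic counterpart CSD1 had 76.1, 214 and 433 CPM in Set2_ctrl, against 248 and 179 CPM in Set1_ctrl, and CCS, the chaperone that loads both, had 20.3, 67.5 and 145 CPM in Set2_ctrl, against 60.3 and 59.5 CPM in Set1_ctrl. FSD1, the iron enzyme that replaces them when copper is short, had 914, 683 and 88.3 CPM in Set2_ctrl, against 818 and 764 CPM in Set1_ctrl. COPT2, a copper transporter, had 13.9, 5.50 and 2.04 CPM in Set2_ctrl, against 5.84 and 6.22 CPM in Set1_ctrl, and the metal transporter YSL2 had 38.5, 28.1 and 8.60 CPM in Set2_ctrl, against 16.2 and 15.6 CPM in Set1_ctrl. Set2_ctrl replicate 3 thus had the highest CSD1, CSD2 and CCS and the lowest FSD1, COPT2 and YSL2 of the Set2_ctrl libraries, and replicate 1 the reverse. Over all tested genes, 104 had such a range of at least 2.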
